A study of Mus musculus with 7 samples.

Results

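Of 14495 genomic regions that carried a peak of C-MYC in both replicates and of SOX2 in both replicates in immortalized multipotent otic progenitor (iMOP) cells, 1247 overlapped no RNA polymerase II (POLII) peak of either replicate. These 1247 regions, 8.6% of the 14495 (95% exact binomial interval 8.15 to 9.07), are described here. They were chosen by measured values: C-MYC and SOX2 peaks that shared at least 1 bp were merged into 70193 regions, and a region was kept when it held a peak of each of the 4 C-MYC and SOX2 lists and touched no peak of the 2 POLII lists. The other 13248 regions with all 4 lists overlapped POLII and are used for comparison. Presence and absence of peaks is therefore what set the members apart, and it is given as a description.

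iMOP cells are a mouse line derived from SOX2-expressing cochlear progenitors by infection with a *c-Myc* retrovirus. The cells for every ChIP, which grew in suspension as otospheres in medium with B27 and 20 ng/ml of bFGF, were probed with 3 antibodies (POLII clone 4H8, the C-MYC antibody N-262 and SOX2 clone 6F1.2), with 2 biological replicates each. The labels do not say whether the replicates came from different clonal lines. Input DNA was not analysed here. The 4 C-MYC and SOX2 lists held 26637 to 44146 peaks and 1784465 to 3152430 tags within peaks, and the POLII lists held 53528 peaks with 1705241 tags in replicate 1 and 31796 peaks with 4488517 tags in replicate 2. Tags are raw counts of sequence reads in a peak. The replicates of POLII thus differed strongly. A region counts as one with POLII when either list marks it, and the results that turn on the choice of list are also given for 1 POLII list alone where that is stated.

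C-MYC is a basic helix-loop-helix factor that pairs with MAX and binds E-box sequences, mostly at the promoters of genes that are already transcribed. SOX2 is a high-mobility-group factor of neural, sensory and pluripotent progenitors that bends DNA and binds many enhancers far from promoters as well as promoters. POLII gathers at promoters and is spread more thinly over transcribed genes and at active enhancers, so that a weakly occupied region can lie below what peak calling detects. A region without a POLII peak is thus one without detected enrichment at the depth of these lists, and not one shown to lack the polymerase.

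Absence of POLII was less frequent the more of the C-MYC and SOX2 lists marked a region. Of all 70193 merged regions, 51.1% overlapped no POLII peak, which is the background for the 8.6% among regions with all 4 lists. The share was 71.0% (70.4 to 71.5) for the 29348 regions with a peak in 1 list, 67.8% (67.0 to 68.6) for the 14107 with 2, and 34.3% (33.5 to 35.2) for the 12243 with 3. It also fell with the number of tags. When the regions with all 4 lists were ranked by their tags, each list scaled by its total, and cut into 10 deciles, 34.6% (32.2 to 37.1) of the lowest decile lacked POLII, or 502 of 1450 regions. The share fell to 19.2% (17.2 to 21.3) in the second decile and was 1.31% (0.791 to 2.04) in both the eighth and the ninth. In the decile with the most tags it was 2.07% (1.4 to 2.94), or 30 regions, an interval that overlaps those of the deciles just before it. In all, 89.3% (87.4 to 90.9) of the members lay in the lower 5 deciles. These intervals cover counting error only, and neighbouring regions are not independent. Region length rose with the tags as well. Its median went from 717 bp in the lowest to 2142 bp in the highest decile among regions with POLII, and from 698.5 to 2589.5 bp among members. A longer region has more room to meet a POLII peak, and the shares by lists and by tags were not compared at like length.

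**Figure D1:**
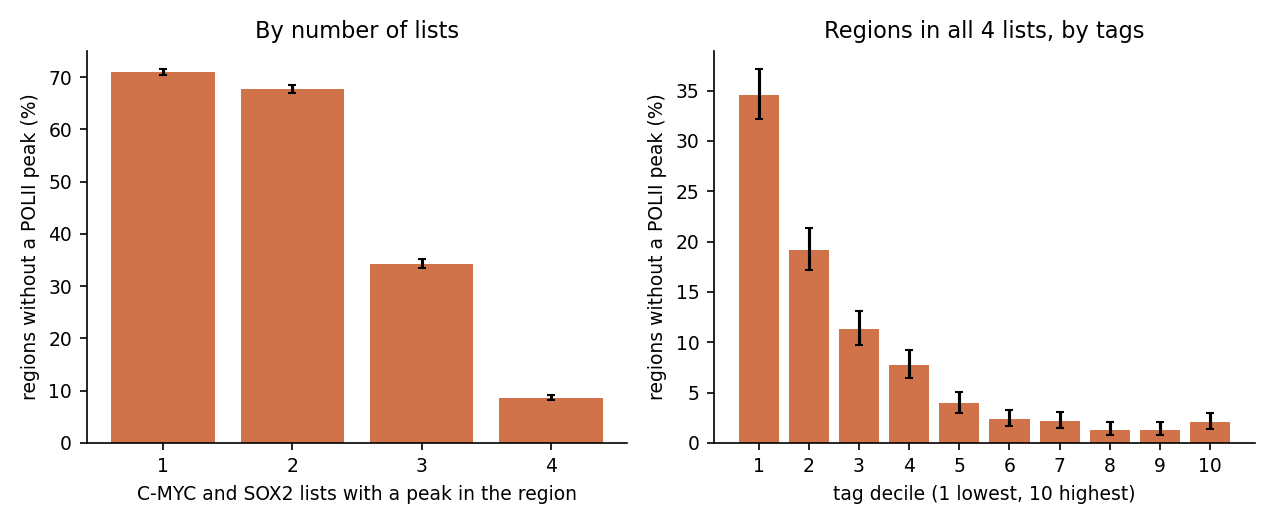
Share of regions without a POLII peak (bars, %, with 95% exact binomial intervals), by the number of C-MYC and SOX2 lists with a peak (left, all 70193 merged regions) and by tag decile among the 14495 regions with all 4 lists (right). The share falls from 71.0% with 1 list to 8.6% with 4, and from 34.6% in the lowest tag decile to 2.07% in the highest. Regions were not matched for length.

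The absence of POLII rested mainly on POLII replicate 2. Among the 14495 regions, 10461 (72.2%) overlapped a peak of POLII replicate 2 alone, 2576 (17.8%) peaks of both replicates and 211 (1.46%) a peak of POLII replicate 1 alone. With POLII replicate 2 as the only POLII list, 1458 regions (10.1%) had no POLII peak. With replicate 1 as the only list there were 11708 (80.8%). The 211 regions with POLII replicate 1 alone resembled the members in size. They had a median length of 936 bp and held medians of 24 and 28 tags in C-MYC replicates 1 and 2 and of 28 and 35 tags in SOX2 replicates 1 and 2.

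The members were shorter and held fewer C-MYC and SOX2 tags than the regions with POLII in every list. Their median length was 899 bp (370 to 5926 bp), against 1338.5 bp for the regions with POLII. Longer regions have more room to meet a POLII peak, so length is not independent of how the members were chosen. In C-MYC replicate 1 the members held a median of 32 tags (lowest 9, highest 999), and the regions with POLII 89. C-MYC replicate 2 gave 35 tags (9 to 1059) against 98. In SOX2 replicate 1 the medians were 31 tags (10 to 1253) against 94. SOX2 replicate 2 gave 41 tags (13 to 328) against 67. The members' median was thus 0.36 and 0.357 times that of the regions with POLII in the C-MYC replicates, and 0.33 and 0.612 times in the SOX2 replicates. The ratio differed little between the C-MYC replicates and much between the SOX2 replicates. The ranges of members and regions with POLII overlapped in all 4 lists. With POLII replicate 1 as the only POLII list, the mean ratio over replicates was 0.739 for C-MYC in place of 0.358, and 0.81 for SOX2 in place of 0.471. Both sets were measured in the same libraries, and an exact paired permutation test over the 2 replicates of an antibody (two-sided) cannot give a p below 0.5, so no difference was tested.

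Fold enrichment, a linear ratio that the authors gave for each peak against a background, told the sets apart less than tags did. The median for C-MYC replicate 1 was 11.67 in members and 11.6 in regions with POLII, and for C-MYC replicate 2 it was 11.39 and 11.34. SOX2 replicate 1 gave 8.67 and 10.11, and SOX2 replicate 2 gave 6.66 and 6.51, and the SOX2 replicates thus pointed opposite ways. Tag density was lower in the members in every list. The median number of tags per kb of peak was 48.34 against 84.02 and 50.03 against 87.89 in the C-MYC replicates, and 44.08 against 82.94 and 55.56 against 66.77 in the SOX2 replicates.

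**Figure D2:**
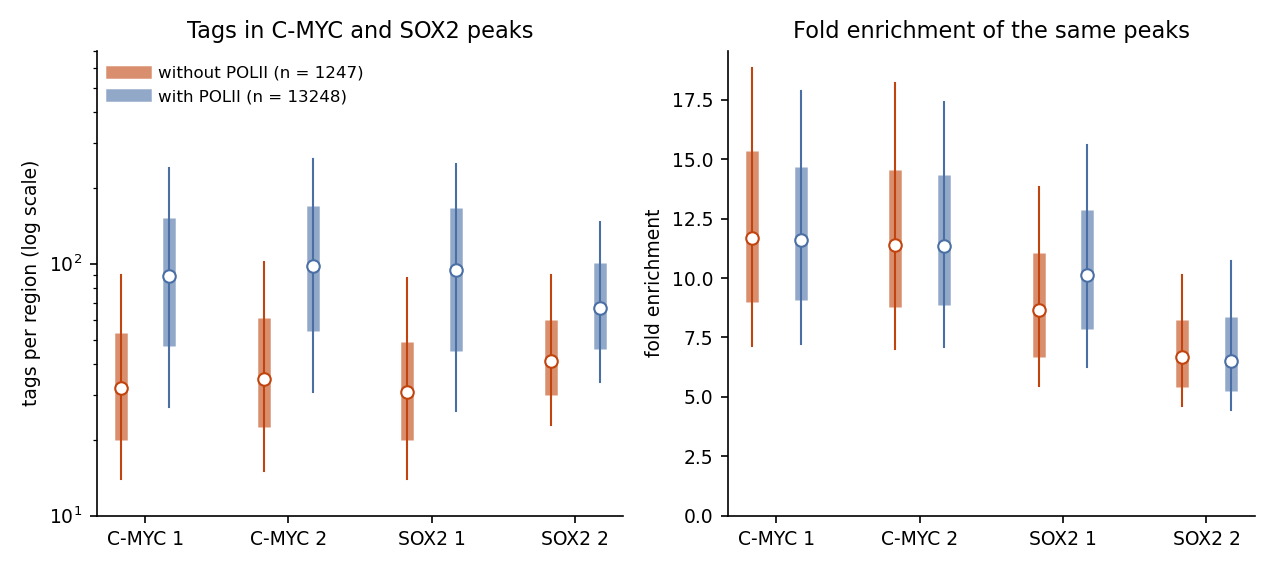
Tags per region (left, log scale) and fold enrichment (right) in the 2 C-MYC and 2 SOX2 replicates (numbered on the x axis), for the 1247 members (orange) and the 13248 regions with POLII (blue). Points are medians, thick bars span the 25th to 75th and thin lines the 10th to 90th percentiles: tags are lower in members in all 4 lists, while the C-MYC medians of fold enrichment lie at 11.67 against 11.6 and at 11.39 against 11.34.

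The sets were also compared within deciles of tags. In C-MYC replicate 1 the lowest tag decile had a median fold enrichment of 13.46 in members and 14.01 in regions with POLII, and the highest decile 8.63 and 9.885, so that the value was higher where tags were few in either set. Within deciles of tags, the members had the lower median C-MYC fold enrichment in 10 of 10 deciles in both C-MYC replicates. In the lowest decile, which held 502 of the members, C-MYC replicate 2 gave 13.03 against 13.68. The C-MYC difference was widest in the sixth decile. There the 34 members had a median of 8.25 in C-MYC replicate 1 and the regions with POLII 11.61, and replicate 2 gave 7.94 and 11.35. Deciles of the tags of all 4 lists left the single lists unequal, since SOX2 replicate 1 had medians of 77.5 and 101 tags in this decile. SOX2 replicate 1 was lower in members in 10 of 10 deciles, with 10.36 against 11.4 in the lowest and 6.62 against 10.2 in the sixth. SOX2 replicate 2 was lower in 9 of 10 deciles by smaller amounts, with 7.25 against 7.315 in the lowest and 6.125 against 6.35 in the sixth. In these deciles the members were the longer regions in 9 of 10 deciles. In the decile with the most tags their median length was 2589.5 bp, against 2142 bp for the regions with POLII. When each list was matched by its own tags, fold enrichment was again lower in members in 10 of 10 deciles of C-MYC replicate 1, C-MYC replicate 2 and SOX2 replicate 1, but in 4 of 10 deciles of SOX2 replicate 2. In the sixth decile the differences for C-MYC were then smaller, with 10.2 against 11.4 in C-MYC replicate 1 and 10.84 against 11.25 in replicate 2. They were not smaller in every decile. The eighth decile of C-MYC replicate 1 gave 9.27 against 11.09, where deciles of the tags of all 4 lists gave 10.01 against 11.09. In SOX2 replicate 1 the sixth decile gave 6.525 against 10.13, and in SOX2 replicate 2 it gave 6.33 against 6.17. Lower fold enrichment at like tags was therefore seen in 3 of the 4 lists, by amounts that varied between deciles for C-MYC. In the first own-tag decile the C-MYC replicates gave 12.87 against 13.07 and 12.66 against 12.98. In the ninth they gave 8.78 against 11.18 and 7.415 against 10.87. Peaks of the same list were longer in members in 5, 7, 9 and 3 of 10 own-tag deciles (C-MYC replicates 1 and 2, SOX2 replicates 1 and 2), so that greater length did not hold across lists. With POLII replicate 1 as the only POLII list, which leaves most regions of POLII replicate 2 among the members, the lower fold enrichment was seen in 18 of 40 pairs of list and decile, in place of 39 of 40 in deciles of the tags of all 4 lists.

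**Figure D3:**
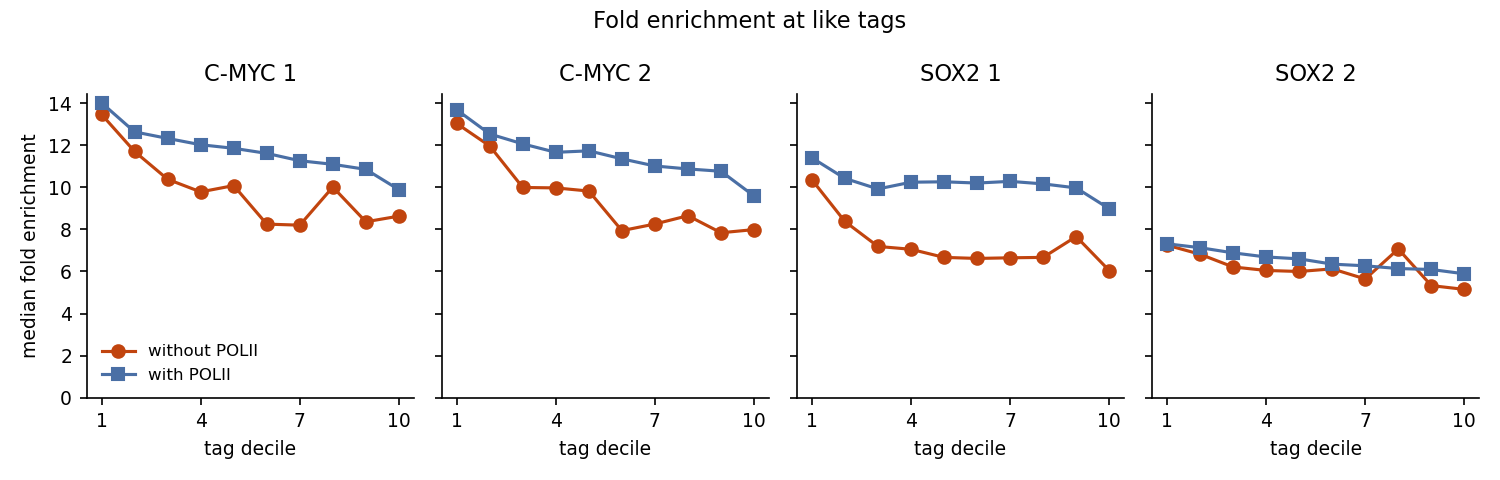
Median fold enrichment (y axis) against tag decile (x axis, 1 lowest to 10 highest, from the tags of all 4 lists) for members (orange circles) and regions with POLII (blue squares), 1 panel per list. Members lie below in 10 of 10 deciles in C-MYC 1, C-MYC 2 and SOX2 1, and in 9 of 10 in SOX2 2, where the lines are close.

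The strength of a member was similar between the C-MYC replicates and less so between those of SOX2. Across the 1247 members, Spearman's rho of the tags was 0.946 between the C-MYC replicates and 0.599 between the SOX2 replicates, and it was 0.581 to 0.691 between a C-MYC and a SOX2 replicate. These correlations are across regions, share the libraries and region lengths, and are given as a description. Among the regions with POLII the rho of the SOX2 replicates was lower, at 0.348, and that of the C-MYC replicates was 0.982.

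The balance of the factors was read as the log2 of SOX2 over C-MYC tags, each list scaled to its median over the 14495 regions and C-MYC averaged over its replicates. With SOX2 replicate 1 the members had a median balance of -0.102 (10th to 90th percentile -1.07 to 0.786), and the regions with POLII -0.00579. With SOX2 replicate 2 it was 0.734 (-0.387 to 1.71) against 0.0323. The members thus stood toward SOX2 in SOX2 replicate 2 only, and the replicates do not give a shared direction. SOX2 exceeded C-MYC by at least 1 log2 unit with both SOX2 replicates in 55 members (4.41%, 3.34 to 5.7), and C-MYC exceeded SOX2 in this way in 20 (1.6%, 0.982 to 2.47). The same shares among regions with POLII were 3.08% and 2.78%.

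C-MYC and SOX2 summits lay close together within the members. The median distance between the summits of the C-MYC replicates was 16 bp, and between those of the SOX2 replicates 54 bp. Between the antibodies it was 39 and 52 bp from C-MYC replicate 1 to SOX2 replicates 1 and 2, and 37 and 51 bp from C-MYC replicate 2. The distance between antibodies was thus no larger than that between the replicates of SOX2, and 71.1% to 78.3% of the summit pairs of different antibodies lay within 100 bp. All 4 summits fell within 100 bp in 650 members (52.1%, 49.3 to 54.9). Among the regions with POLII, 47.0% (46.2 to 47.9) did, and the median distances between antibodies were 46 to 55 bp. Summits have less room to lie apart in shorter regions, and the members had a median length of 899 bp against 1338.5 bp. The summit distances were not compared at like length, so closer summits are not shown to be particular to the members. Of the members, 1230 (98.6%) had a single peak in each of the 4 lists. The same share was not computed for the regions with POLII, which were longer, so it is not shown to be particular to the members.

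Most members lay within 20 kb of a POLII summit, a distance that depends on how many POLII peaks were called. It was not computed for the other merged regions without POLII. The median distance from a member to the nearest POLII summit of either replicate was 7819 bp (523 to 550373 bp), where the place of a member is the mean of its 4 summits. Of the members, 2.65% (1.83 to 3.7) lay within 1 kb of a POLII summit, 33.2% (30.6 to 35.9) within 5 kb and 83.3% (81.1 to 85.3) within 20 kb, and 9 members had none within 100 kb. The value depended on the POLII replicate. The nearest summit belonged to replicate 1 for 756 members (60.6%), and the median distance was 13277 bp to replicate 1 and 18582 bp to replicate 2. Replicate 1 also held more peaks, 53528 against 31796, so these values are not a trait of the members alone. Against replicate 2 alone, 13.2% (11.4 to 15.2) of the members lay within 5 kb and 121 members (9.7%) had no summit within 100 kb. From edge to edge, the median gap from a member to a POLII peak was 6929 bp. For the regions with POLII, the median gap to the next POLII peak that did not touch them was 7247.5 bp, and such a peak lay within 5 kb of 34.3% (33.5 to 35.1) of them, against 40.0% (37.3 to 42.8) of the members.

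**Figure D4:**
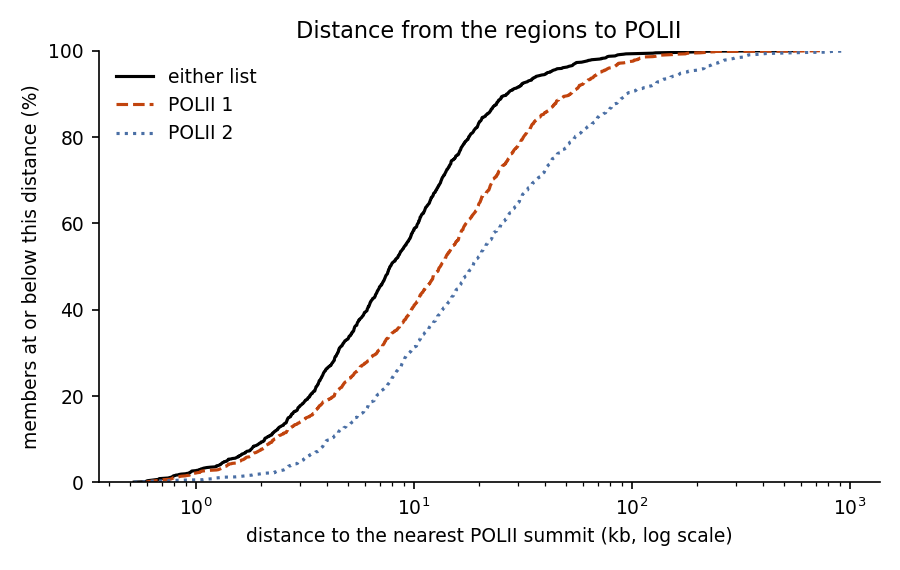
Cumulative share of the 1247 members (y axis, %) by distance to the nearest POLII summit (x axis, kb, log scale), for either POLII list (solid), POLII 1 (dashed) and POLII 2 (dotted). The medians are 7819, 13277 and 18582 bp.

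Members more than 20 kb from POLII had fewer tags and higher fold enrichment than those within 5 kb, but the members between did not form a steady trend. The 414 members with a POLII summit within 5 kb held medians of 35 and 40 tags in the C-MYC replicates and 32 and 43.5 in the SOX2 replicates. The 208 members more than 20 kb from any POLII summit held 28.5 and 31 C-MYC tags and 24 and 38 SOX2 tags. Fold enrichment went the other way. It was 13.38 and 13.45 for C-MYC in the far members, against 11.48 and 11.04 in the near ones, and 9.45 and 7.35 for SOX2 against 8.33 and 6.67. Both directions were seen in 4 of 4 lists and were not tested. By the tags of all 4 lists, fold enrichment was higher in the lowest than in the highest decile in either set, so the directions are not independent. By its own tags, SOX2 replicate 2 went the other way in the regions with POLII, from 6.8 in the lowest to 7.73 in the highest decile. Near and far members were not compared at like tags. The 625 members (50.1%) at 5 to 20 kb had fold enrichments of 11.27 and 11.17 for C-MYC and 8.53 and 6.52 for SOX2, which lay below the near members in C-MYC replicate 1 and SOX2 replicate 2 and above them in the other lists. Their median length was 935 bp, against 900 bp in the near and 844 bp in the far members.

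The regions with the highest fold enrichment in their weakest list were short and held modest numbers of tags. The 10 leading members, ranked by the worst of their 4 ranks, measured 456 to 785 bp, and their 4 summits fell within spans of 14 to 107 bp. Fold enrichment in them was 20.95 to 27.23 in C-MYC replicate 1, 19.21 to 28.13 in C-MYC replicate 2, at least 15.08 in SOX2 replicate 1 and 10.55 to 14.75 in SOX2 replicate 2. Positions are on mouse build mm9. The first of them, chr3:42377057-42377699, held 37 and 29 C-MYC tags and 15 and 41 SOX2 tags, with fold enrichments of 24.71, 21.41, 17.87 and 14.15 in the same order. Its nearest POLII summit lay 38260 bp away. Others of the 10 lay on the same chromosome. At chr3:42712191-42712750 fold enrichment reached 27.23 and 21.82 for C-MYC and 15.32 and 11.39 for SOX2, and the nearest POLII summit lay 3285 bp away. At chr3:118789461-118789916 it was 24.73 and 22.38 for C-MYC and 17.87 and 12.29 for SOX2, with a POLII summit 8515 bp away.

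At chr19:14421870-14422408 the tags were 19 and 26 for C-MYC and 14 and 48 for SOX2, and the fold enrichments were 23.34, 28.13, 16.59 and 14.75. The POLII summit nearest to it was 5699 bp away in replicate 1 and 42757 bp away in replicate 2. The region chr12:47472765-47473314 had the highest SOX2 replicate 1 fold enrichment of the 10, with 22 tags there and 13, 19 and 27 in C-MYC replicate 1, C-MYC replicate 2 and SOX2 replicate 2. Its nearest POLII summit lay 54025 bp away, the farthest among the 10. For 8 of the 10, the nearest POLII summit was one of replicate 1, the POLII list with more peaks.

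The member farthest from POLII was chr16:61772128-61772730, which lay 550373 bp from a summit of POLII replicate 1 and 945854 bp from one of replicate 2. It held 14 tags in each C-MYC replicate and 12 and 22 in the SOX2 replicates. Fold enrichment there was 17.83 and 16.46 for C-MYC and 12.76 and 9.57 for SOX2, above the median of the members in all 4 lists. The next farthest, on chromosomes 18 and 13, lay 240836 and 206070 bp from the nearest summit.

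The 3 members with the most tags were long, and 2 of them had low fold enrichment. At chr17:34254727-34260214, a region of 5488 bp, C-MYC had 999 and 1059 tags and SOX2 replicate 1 had 1253, but SOX2 replicate 2 had 74. Fold enrichment was 7.47 and 6.93 for C-MYC and 6.01 and 5.4 for SOX2, below the member medians in all 4 lists. The second, chr10:79720280-79725489, held 523 and 583 C-MYC tags and 512 and 150 SOX2 tags, with fold enrichments of 4.49 to 6.81. The third, chr13:55570222-55574438, held 514 and 532 C-MYC tags and 276 and 286 SOX2 tags. Its fold enrichments of 12.95 and 12.34 for C-MYC and 12.3 for SOX2 replicate 2 were above the member medians, whereas that of SOX2 replicate 1 was 8.53. These regions had POLII summits 13308, 3850 and 11865 bp away. SOX2 replicate 2 held far fewer tags than SOX2 replicate 1 in the first 2 regions and about as many in the third.

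A stricter score kept few of the members. The score of a peak is 10 times the −log10 of its p-value and is at least 50 in every list. A score of 100 or more in all 4 lists was reached by 86 members (6.9%, 5.55 to 8.45), against 37.3% (36.5 to 38.1) of the regions with POLII. These 86 lay on 20 chromosomes and had medians of 50.5 and 55.5 C-MYC tags and 42 and 63.5 SOX2 tags. Of them, 53 had no POLII summit within 5 kb and 16 had none within 20 kb.

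The limits of the rule can be seen in the regions next to it. The member with the smallest gap, chr5:119041384-119042582, ended 17 bp from a POLII peak, and the next had gaps of 24 bp (chr4:100960791-100961360) and 45 bp (on chromosome 18). The first of these held 56 and 71 C-MYC tags and 45 and 59 SOX2 tags. Just outside the rule, chr12:54548930-54549587 shared 13 bp with a peak of POLII replicate 2 and held 31 and 33 C-MYC tags and 33 and 76 SOX2 tags. The region chr6:88440433-88441243 shared 13 bp with a peak of POLII replicate 1, and chr9:61334787-61335516 shared 29 bp. A POLII peak edge lay within 1 kb of 108 members (8.66%, 7.16 to 10.4).

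Few members lay close to another member, but the spacing expected for this number of regions was not computed. The median distance to the nearest other member was 416140 bp, and 120 members (9.62%, 8.04 to 11.4) had another within 50 kb and 4 members (0.321%, 0.0875 to 0.819) had one within 5 kb. The closest members were 3553 bp apart. The regions with POLII, which were more numerous, were nearer at a median of 41857 bp, and 55.9% (53.1 to 58.7) of the members had one within 50 kb and 3.69% (2.71 to 4.89) within 5 kb.

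All autosomes and chromosome X held members, and the only Y region with all 4 lists overlapped POLII. The share of regions without POLII ran from 6.42% (4.76 to 8.45) on chromosome 8, with 47 of 732 regions, to 11.9% (9.15 to 15.1) on chromosome 18, with 58 of 488. Chromosome 14 had 11.7% (9.08 to 14.9) and chromosome X 6.69% (4.08 to 10.3), or 19 of 284. The intervals of 2 of the 20 chromosomes lay above the 8.6% of all chromosomes and that of 1 lay below, and the rest held it. A block at the distal end of chromosome 6 held 41.2% to 55.2% of that chromosome's tags in both C-MYC replicates and SOX2 replicate 2, against 6.52% in SOX2 replicate 1. In POLII replicates 1 and 2 it held 10.2% and 26.7%. It had no member among its 27 regions with all 4 lists. Leaving it out moved the share of chromosome 6 from 8.35% to 8.65%.

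**Figure D5:**
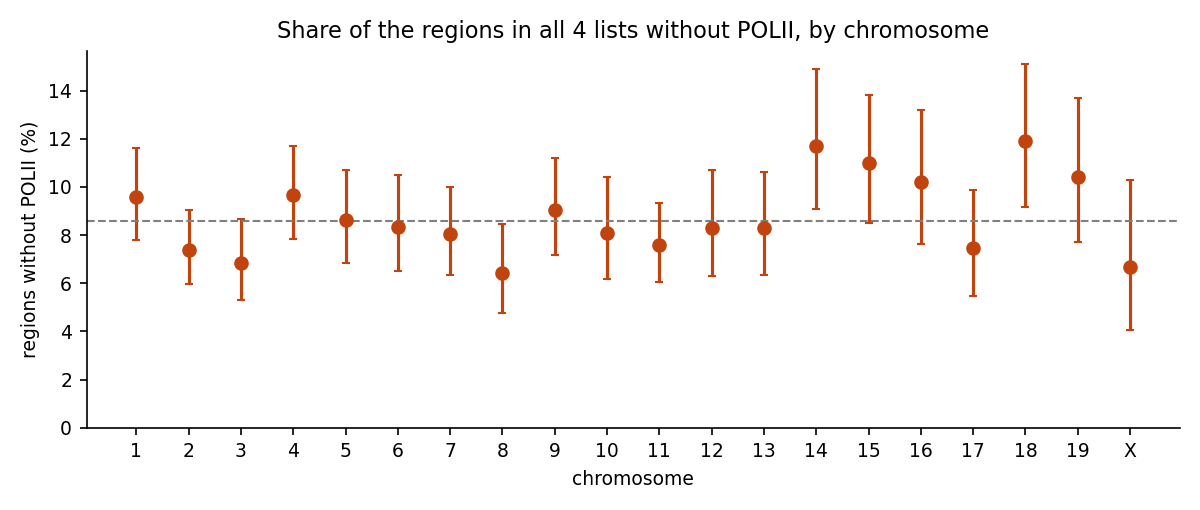
Share of the regions with all 4 C-MYC and SOX2 lists that lacked POLII (points, %, with 95% exact binomial intervals) for chromosomes 1 to 19 and X. The dashed line marks the 8.6% of all chromosomes: the intervals of chromosomes 14 and 18 lie above it and that of chromosome 8 lies below.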

How the data were processed

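ChIP-seq peak lists of 6 libraries were used, 2 replicates each for POLII, C-MYC and SOX2, with 1 deposited list per replicate. Per the labels the build is mm9. The aligner, peak caller, control and filters are not given in the sources used here. The deposited tags are raw counts, not scaled for library size, the deposited score is 10 times the −log10 of the p-value, and the fold enrichment is a linear ratio as the authors gave it. Depth is known from the tags in peaks alone, since total reads were not given.

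Peaks were merged and overlapped at 1 bp or more with python 3.11.15, numpy 2.4.6 and pandas 2.3.3. The counts were the same with bedtools 2.31.1, and the steps were tested on simulated peaks. Tags of a list were summed over its peaks in a region, with the highest fold enrichment and the summit of the peak with the most tags. Exact binomial (Clopper-Pearson) 95% intervals were from scipy 1.17.1 and figures from matplotlib 3.10.9. The members and lists were chosen with earlier results of these data known, and the comparison at like tags was added after values had been seen. Named regions were the 10 members with the best worst rank of fold enrichment over the 4 lists, the 3 farthest from POLII, the 3 with the most scaled tags, and the 3 just inside and outside the rule. No mm9 genome or annotation was used here, so no sequence was read and no gene was assigned. Alternatives were other peak thresholds, overlaps and POLII distances, and replicates left out.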

Additional observations from a re-analysis of the deposited data

How the results depend on the processing

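Across 147 recomputations, 59 moved by more than the spread between replicates, the interval of the reported value or 1.5 times a count, 1 reversed and the other 87 did neither. No paired analysis was possible because no result comes from a test. A peak covering 50% of the shorter of peak and region changed nothing, since each peak lies inside its merged region. A peak covering 50% of the merged region was therefore added in its place after the data had been seen. The values of the first alternative, the same by construction, are still counted among the 147 and the 87. The spread between replicates was 0.0017 for the ratio of C-MYC tags and 0.2 for that of SOX2. A C-MYC ratio of 0.36 against 0.358 thus counted as moved, and a SOX2 ratio of 0.337 against 0.471 did not. Other windows for spacing, and shares with no POLII peak within 1 kb or 5 kb, moved by construction and are counted among the 59.

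When only peaks with scores of 100 or more were kept in all 6 lists, POLII included, 454 of 5026 regions lacked POLII. Most of these are not among the 1247 members, of which 86 reach that score in all 4 lists. The members became 748 with no POLII peak within 5 kb. The share without POLII, 8.6%, was 13.7% with the top 50% of peaks by score, 7.44% with the same number of peaks (26637) per list, and 7.86% and 5.16% with no POLII peak within 1 kb and 5 kb. When 1 replicate was left out, there were 1347 to 11708 members and the share was 9.1% to 80.8%, the highest of each without POLII replicate 2. Without SOX2 replicate 1 there were 2966 members, and without SOX2 replicate 2 there were 3492.

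The ratio of median C-MYC tags, 0.358, was 0.348 with a peak covering 50% of the region, 0.464 with the top 50% of peaks, 0.458 with scores of 100 or more, 0.404 with the same number of peaks, 0.337 with no POLII peak within 5 kb, 0.36 without the chromosome 6 block and 0.337 to 0.739 with a replicate left out. That of SOX2, 0.471, was 0.337 to 0.81 with a replicate left out, and the highest value of either ratio was without POLII replicate 2. The ratio of median C-MYC fold enrichment, 1.01, was 1.01, 1.1, 1.05 and 1.08 under the first 4 of these settings, 1.01 and 1.04 with no POLII peak within 1 kb and 5 kb, and 0.99 to 1.02 with a replicate left out, so that its side of 1 was not stable.

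The median length, 899 bp, was 829, 1019, 1047.5 and 935 bp under the same first 4 settings and 804 to 1275 bp with a replicate left out. The median distance to a POLII summit, 7819 bp, was 16671.5 bp with the top 50% of peaks, 31498 bp with scores of 100 or more, 12628 bp with the same number of peaks, 9008 and 13425 bp with no POLII peak within 1 kb and 5 kb, and 7674 to 19208 bp with a replicate left out. Thinner POLII lists lengthen this distance by construction.

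Fold enrichment at like tags was lower in members in 39 of 40 pairs of list and decile. It was lower in 34 of 40 when each list was matched by its own tags, in 33 with the top 50% of peaks and in 32 with scores of 100 or more. With a replicate left out the count of such pairs was 18 to 39, of 30 or 40, and the 18 of 40 without POLII replicate 2 reversed the direction. Members were longer in 5 to 10 of 10 deciles with a replicate left out, with an even 5 without POLII replicate 2, and in 22 of 40 when matched by each list's own tags. The share of members with another in the window fixed for spacing was 3.37%. Another member lay within 5 kb of 0.321% and within 50 kb of 9.62% of the members. The causes were not tested.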
